A study of Mus musculus with 12 samples.

Results

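The 37 genes described here encode proteins that carry a cell through mitosis: the cyclins and kinase that start it, the spindle checkpoint, the centromere and kinetochore, the chromosomal passenger complex, mitotic kinesins, the spindle and its midzone, cytokinesis, and the release of sister chromatids. They were taken as a named list, by summing the RefSeq transcript counts of each symbol, and make up 37 of 38911 genes listed and 37 of 16966 genes that passed the filter on low counts. No member was lost to that filter.

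The libraries were made from gastruloids, aggregates of mouse embryonic stem (ES) cells that form a body axis in culture, here from the line E14TG2a kept in 2iLIF and seeded at 200 cells each. All 12 libraries hold polyA RNA of whole gastruloids on day 4, after 1 day in 0X glucose (0 mM), 1X glucose (21.25 mM, the control), 3X glucose (63.75 mM), or 1X glucose with 5 mM 2-deoxyglucose (2-DG), a glucose analog that blocks glycolysis and competes with mannose in protein glycosylation. Each of the 4 groups has 3 libraries, 1 from ES cells at passage 13, 1 at passage 15 and 1 at passage 16, and per the study's methods the gastruloids of a culture plate were pooled for each library. All groups share 1 cell line, so the spread between libraries is that between passages of this line.

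Entry into mitosis needs Cdk1 bound to cyclin A or B, and exit from it needs the destruction of cyclin B and securin by the anaphase-promoting complex. Between the 2 steps, the kinetochores attach chromosomes to spindle microtubules, and the checkpoint kinases and Mad and Bub proteins hold back the anaphase-promoting complex until attachment is complete. Many of these genes are transcribed mainly in G2 and M phase, through CHR elements bound by the DREAM and MMB-FOXM1 complexes and CCAAT boxes bound by NF-Y, so in a tissue their RNA level is often read as a sign of how many cells are cycling. These are bulk libraries, so fewer cells that express a gene and less of its RNA per cell cannot be told apart.

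Library totals ran from 31902471 to 45956080 counts, and the members took 0.688% to 0.783% of them. Levels are given in CPM, the counts of a gene scaled to the library total with TMM factors, and fold changes as log2. Within a group the coefficient of variation over the 3 passages had a median of 4.44% over members and groups and went from 0.271% to 15.6%. Over the 12 libraries, the ratio of a member's highest to its lowest library lay between 1.09 for Ccna2 and 1.64 for Ccnb2. Levels per length use the most abundant transcript with a length in GENCODE M21. For some members, Ect2 among them, this was not the transcript with the most counts. By this measure, the highest member in 1X glucose was Ube2c, the ubiquitin-conjugating enzyme of the anaphase-promoting complex, at 176.6 CPM per kilobase. Next came Top2a, the topoisomerase that untangles sister chromatids, at 160.4 CPM per kilobase and Cdc20, the activator of the anaphase-promoting complex, at 136.3. The lowest were Espl1 (separase) at 22.0 and Pttg1 (securin) at 14.1 CPM per kilobase.

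In 2-DG, 11 of the 37 mitosis genes were lower than in 1X glucose and none was higher (adjusted p below 0.05, edgeR's quasi-likelihood test with Benjamini-Hochberg adjustment over all 16966 genes). This fit had no term for the passage. Over all genes tested, 8.51% were called lower and 9.12% higher in this comparison. The genes called were Ccnb2 and Cdk1, the checkpoint kinases Bub1 and Ttk, the centromeric histone Cenpa, Incenp of the passenger complex, the motors Kif20a, Kif23 and Kif2c, the spindle assembly factor Tpx2, and Ect2, which directs the cleavage furrow. Most changes were small: apart from Ccnb2, the called members fell by 0.15 to 0.34 on the log2 scale, and the median over the 37 was -0.11, against 0.002 over all genes tested. A fold change below 0 was found for 32 of 37 members, against 49.7% of all genes. With the passage of the ES cells taken as a block, 18 members were called lower and none higher, where 20.2% of all genes were called lower and 21.1% higher.

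**Figure D1:**
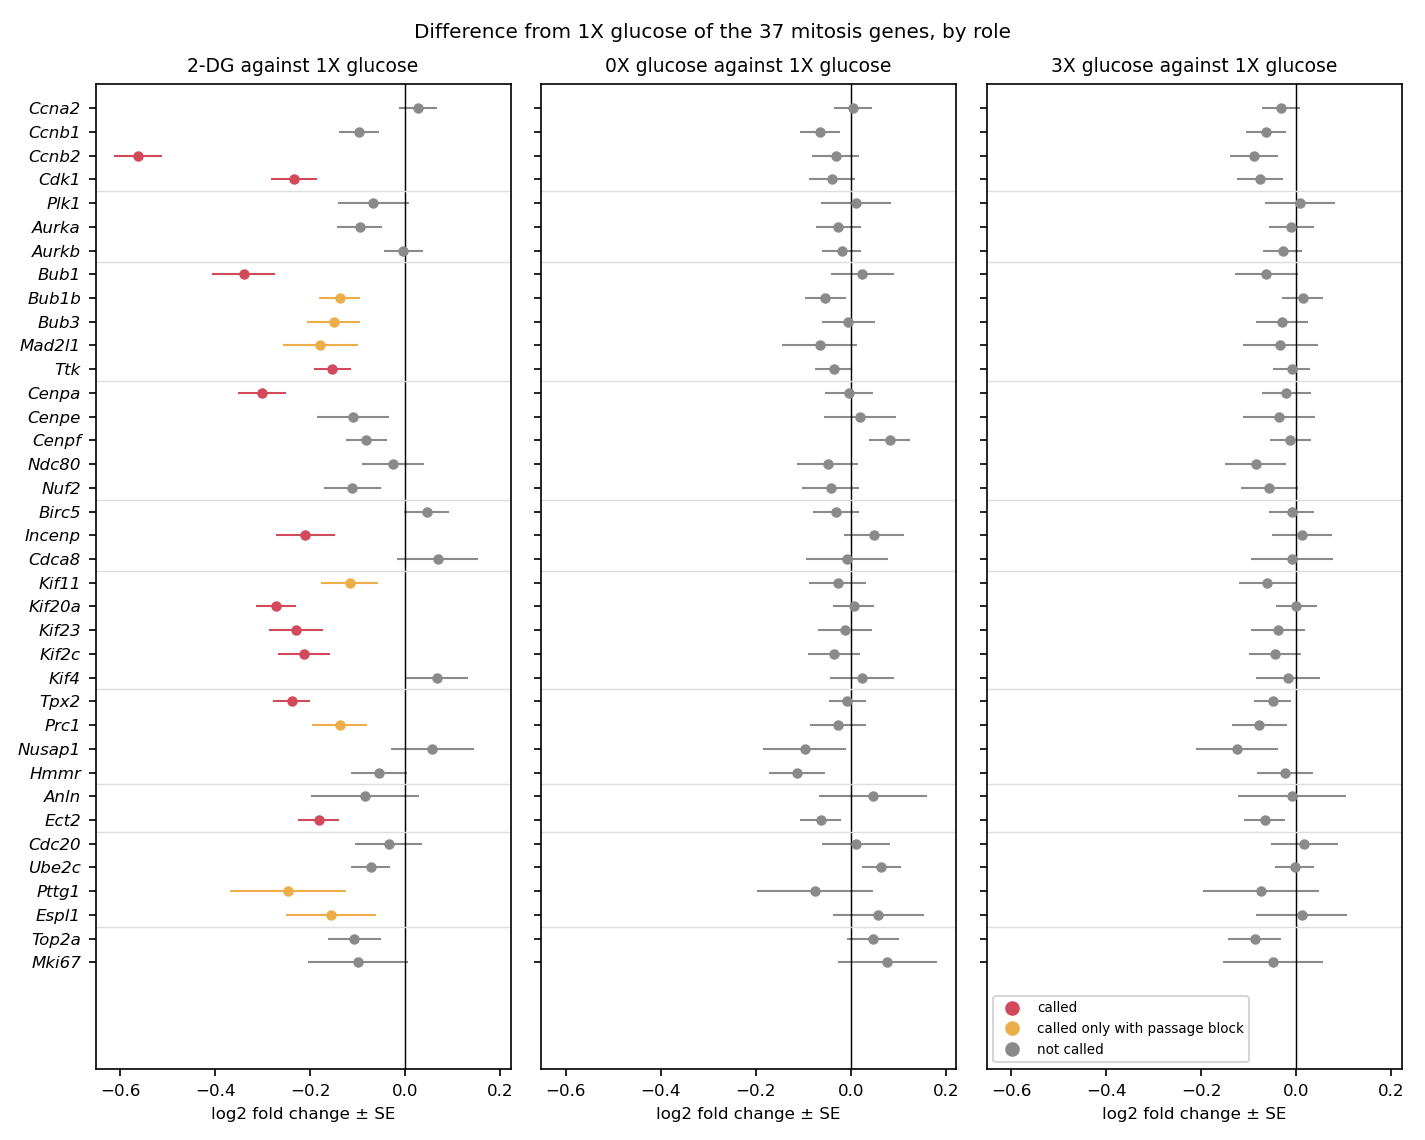
Log2 fold change with its standard error (x axis) of each of the 37 mitosis genes (rows, grouped by role with grey lines) in 2-DG, 0X glucose and 3X glucose, each against 1X glucose, 3 libraries a group. In the left panel 11 genes are called and 7 more are called only with the passage block, while no gene is called in the other panels.

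Ccnb2, cyclin B2, changed most of the 37 members. Its level was 120.1, 114.3 and 109.2 CPM in 1X glucose at passages 13, 15 and 16, and 81.3, 73.3 and 78.1 CPM in 2-DG. The highest 2-DG library lay below the lowest of the other 9 libraries, at 104.7 CPM. The gene (chromosome 9, 70407689 to 70421554, GRCm38.p6) fell by 0.56 on the log2 scale (SE 0.050, edgeR adjusted p = 0.000121), a mean of 77.5 ± 4.02 CPM against 114.5 ± 5.44 (SD, n = 3), and the differences within passages 13, 15 and 16 were -0.56, -0.64 and -0.48.

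Cdk1, the kinase that both B-type cyclins activate, had 195.5, 201.4 and 180.3 CPM in 1X glucose and 166.5, 162.2 and 162.3 CPM in 2-DG. All 3 of its 2-DG libraries were below every other library, of which the lowest had 176.0 CPM. Cdk1 (chromosome 10, 69335146 to 69352912) fell by 0.23 on the log2 scale (SE 0.048, edgeR adjusted p = 0.00836).

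The other members of the group did not pass the test. Ccnb1, cyclin B1, the most abundant of the 4 per length, had 294.7, 289.1 and 272.2 CPM in 1X glucose and 266.8, 262.2 and 271.5 CPM in 2-DG, a difference of -0.097 (SE 0.042, edgeR adjusted p = 0.145). Its groups came within 1 CPM of each other and did not overlap. Ccna2, cyclin A2, had a difference of 0.026 (SE 0.040, edgeR adjusted p = 0.723) with overlapping groups. The ratio of Ccnb2 to Ccnb1 was 0.407, 0.395 and 0.401 in the 1X libraries and between 0.392 and 0.420 in the 0X and 3X libraries, and 0.305, 0.280 and 0.288 in the 2-DG libraries. This ratio was looked at after the values of both genes were known and was not tested.

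**Figure D2:**
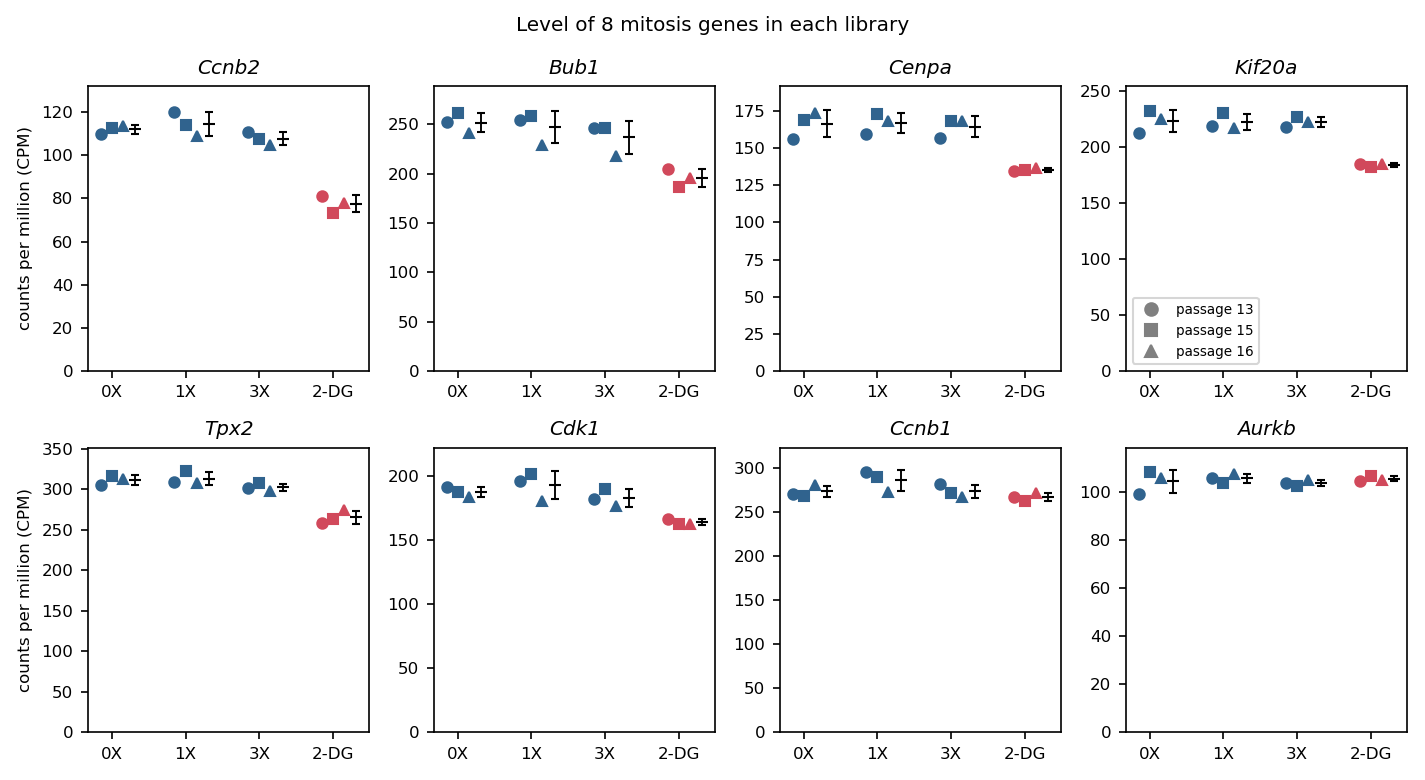
CPM of 8 mitosis genes (y axes start at 0) in each of the 12 libraries, by treatment (x axis), with the ES cell passage as the marker shape and the mean ± SD of 3 libraries beside each group. For Ccnb2, Bub1, Cenpa, Kif20a, Tpx2 and Cdk1 all 2-DG libraries lie below all others, while Ccnb1 and Aurkb do not separate in this way.

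The promoters show which of the sequence elements of G2 and M phase genes the called members carry. RefSeq windows of 300 bases (250 before the start and 50 after it, GRCm38.p6) were matched for 32 of 37 members, all but Aurkb, Incenp, Kif20a, Tpx2 and Ccna2. They were searched on both strands for the CHR element, written TTTGAA or TTCGAA, and for the CCAAT box, written CCAAT. A CHR element was in 25 of the 32 (78.1%), against 21.7% of the 27025 genes with a window, and a CCAAT box in 24 (75.0%, against 41.1% of all). Both stood together in 22 of 32 (68.8%, against 9.7% of all). A match is a description of the letters, not a site in use, and other spellings of the CHR element were not searched. Of the 8 members called lower in 2-DG that have a window, 8 held a CHR element and 7 a CCAAT box, and of the 24 not called, 17 held each. The window of Kif2c, a called member, lies within the gene's own span, which ends at 117182624 on chromosome 4. Its bases before the start are chr4:117178773-117178952 on the minus strand, so they precede an internal start. Ect2, also called, has its bases before the start at chr3:27153879-27154058 or 27153855-27154034 on the minus strand. Both stretches lie within its span, which ends at 27154253. The windows of Pttg1 and Aurka, not called, also lie within their genes' spans.

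For the cyclin and kinase genes with values in every library, and for Bub1, the 180 bases before the start are given on the gene's own strand, 5′ to 3′, with the CCAAT boxes and CHR elements of either strand in capitals. They are Ccnb2 at chr9:70421555-70421734, Cdk1 at chr10:69352913-69353092, Bub1 at chr2:127831860-127832039 and Ccnb1 at chr13:100786487-100786666, all on the minus strand.
Ccnb2: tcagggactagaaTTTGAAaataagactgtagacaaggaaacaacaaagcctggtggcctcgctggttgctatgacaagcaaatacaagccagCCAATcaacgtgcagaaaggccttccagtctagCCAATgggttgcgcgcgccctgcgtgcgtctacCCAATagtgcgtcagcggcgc
Cdk1: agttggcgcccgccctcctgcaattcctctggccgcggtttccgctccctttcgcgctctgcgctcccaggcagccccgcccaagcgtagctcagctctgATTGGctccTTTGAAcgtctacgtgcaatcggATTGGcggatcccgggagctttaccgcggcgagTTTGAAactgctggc
Bub1: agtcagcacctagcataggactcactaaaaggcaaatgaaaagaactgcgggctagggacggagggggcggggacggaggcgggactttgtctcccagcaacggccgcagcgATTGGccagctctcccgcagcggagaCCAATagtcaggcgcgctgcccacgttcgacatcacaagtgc
Ccnb1: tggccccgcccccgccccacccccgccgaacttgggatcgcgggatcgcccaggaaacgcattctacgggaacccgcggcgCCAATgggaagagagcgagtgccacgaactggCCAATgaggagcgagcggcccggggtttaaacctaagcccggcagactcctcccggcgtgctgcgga

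Ccnb2 carried 3 CCAAT boxes, at -87, -54 and -21 from the start, each 33 bases from the next, with CHR letters at -167 and, past the start, at 5. Cdk1 carried CHR letters at -71 and -15 and boxes on the other strand at -208 (before the stretch printed), -80 and -48. Bub1 had 1 box on each strand and its CHR letters at 15, past the start. Ccnb1 had 2 boxes, 32 bases apart, at -99 and -67, and neither TTTGAA nor TTCGAA in its window. Boxes of 1 orientation 31 to 34 bases apart, a distance chosen after these windows were seen, were in 7 of 32 members (21.9%) and in 1.0% of all genes with a window.

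The mitotic kinases outside the checkpoint were not called. Plk1, which acts from entry to cytokinesis and is the most abundant of them per length, had 160.8, 173.0 and 182.2 CPM in 1X glucose and 146.1, 175.4 and 170.9 CPM in 2-DG, with overlapping groups. Its difference was -0.067 (SE 0.074). Aurka, the kinase of spindle poles, differed by -0.096 (SE 0.047), and Aurkb, the kinase of the passenger complex, by -0.004 (SE 0.041).

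The spindle checkpoint was the group in which all 5 members were called once the passage was a block, and without the block Bub1 and Ttk were. Bub1, a kinase that recruits checkpoint proteins to kinetochores, had 254.7, 258.7 and 228.9 CPM in 1X glucose and 204.5, 186.4 and 195.4 CPM in 2-DG. Its 2-DG libraries were below all others, and it (chromosome 2, 127800197 to 127831859) fell by 0.34 on the log2 scale (SE 0.066, edgeR adjusted p = 0.00649). Ttk, the kinase Mps1 that starts checkpoint signalling, had 122.7, 127.4 and 119.6 CPM in 1X glucose and 110.3, 108.6 and 113.3 CPM in 2-DG. The groups did not overlap, and Ttk fell by 0.15 (SE 0.039, edgeR adjusted p = 0.0231).

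Mad2l1, the Mad2 protein that binds Cdc20, is the most abundant of the 5 per length. It had 191.0, 204.0 and 205.6 CPM in 1X glucose and 160.5, 173.4 and 196.8 CPM in 2-DG, so that the groups overlapped while each passage was lower in 2-DG. Without the block its edgeR adjusted p was 0.146, and with it 0.00318. Bub3 went from 0.0880 to 0.00664 and Bub1b from 0.0512 to 0.0131 in the same way, with differences of -0.15 and -0.14.

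At the centromere, Cenpa had 159.6, 173.0 and 168.3 CPM in 1X glucose and 134.4, 135.3 and 136.6 CPM in 2-DG. The 2-DG libraries lay close together and below all others. This histone H3 variant, which marks the centromere (chromosome 5, 30666877 to 30674837), fell by 0.30 on the log2 scale (SE 0.051, edgeR adjusted p = 0.00347) and is the most abundant of its group per length. Cenpe and Cenpf, a kinetochore motor and a kinetochore scaffold, and Ndc80 and Nuf2, partners in the complex that grips microtubules, were not called. Their differences ran from -0.026 for Ndc80 to -0.11 for Nuf2, and all 4 had overlapping groups.

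In the passenger complex, which corrects faulty attachments, the members differed in sign. Incenp, its scaffold, had 169.4, 191.4 and 189.0 CPM in 1X glucose and 146.7, 163.4 and 165.1 CPM in 2-DG. The groups did not overlap, and Incenp (chromosome 19, 9872295 to 9899489) fell by 0.21 (SE 0.063, edgeR adjusted p = 0.0417). Birc5 (survivin), the most abundant of the 3 per length, had 121.2, 126.6 and 116.5 CPM in 1X glucose and 128.0, 122.4 and 125.5 CPM in 2-DG, a difference of 0.045 (SE 0.048) between overlapping groups. Cdca8 (borealin) had a difference of 0.068 (SE 0.086) and was the 1 member that lay higher in 2-DG in all 3 passages, though its groups overlapped. Neither passed the test.

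Of the kinesins, 3 of 5 were called. Kif20a, which carries the passenger complex to the midzone, had 218.7, 230.7 and 217.5 CPM in 1X glucose and 185.0, 182.3 and 185.0 CPM in 2-DG. Its 2-DG libraries were below all others, and it fell by 0.27 on the log2 scale (SE 0.043, edgeR adjusted p = 0.00233). Kif23, a motor of the central spindle, had 143.3, 132.1 and 131.2 CPM in 1X glucose and 115.2, 111.6 and 120.0 CPM in 2-DG. Kif2c, which takes microtubules apart at centromeres, had 145.7, 161.3 and 157.7 CPM in 1X glucose and 130.6, 133.2 and 137.2 CPM in 2-DG. For both, every 2-DG library was below every other library. Kif23 fell by 0.23 (SE 0.057, edgeR adjusted p = 0.0197) and Kif2c by 0.21 (SE 0.055, edgeR adjusted p = 0.0236).

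Kif11, the motor that pushes spindle poles apart, was called only with the block (difference -0.12, edgeR adjusted p = 0.210 without it and 0.0270 with it). Kif4, a chromosome-bound motor, had a difference of 0.066 (SE 0.067) and was not called.

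Tpx2, which activates Aurka on spindle microtubules, had 309.7, 322.4 and 307.7 CPM in 1X glucose and 258.7, 262.9 and 274.9 CPM in 2-DG. Every 2-DG library was below every other library, and Tpx2 (chromosome 2, 152847964 to 152895321) fell by 0.24 on the log2 scale (SE 0.039, edgeR adjusted p = 0.00281). Prc1, which bundles the midzone, was called only with the block (difference -0.14, edgeR adjusted p = 0.126 without it and 0.0214 with it). Nusap1 and Hmmr, spindle-associated proteins, had differences of 0.057 (SE 0.087) and -0.056 (SE 0.059), with overlapping groups.

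Ect2, the exchange factor that activates RhoA at the cleavage furrow, had 140.6, 138.6 and 136.1 CPM in 1X glucose and 124.5, 121.8 and 119.8 CPM in 2-DG. All 2-DG libraries were below all others, and the differences within the passages lay between -0.19 and -0.18. Ect2 (chromosome 3, 27097222 to 27154253) fell by 0.18 (SE 0.043, edgeR adjusted p = 0.0156). Anln (anillin), which organises the contractile ring and is the more abundant of this pair per length, had 143.7, 179.9 and 170.0 CPM in 1X glucose and 142.2, 162.5 and 160.7 CPM in 2-DG. Its groups overlapped, with a difference of -0.085 (SE 0.114).

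The genes of anaphase onset were not called without the block. Ube2c had 170.6, 177.9 and 163.8 CPM in 1X glucose and 166.4, 157.1 and 163.6 CPM in 2-DG, a difference of -0.073 (SE 0.041) between overlapping groups. Cdc20 had a difference of -0.035 (SE 0.071). With the block, Pttg1 (difference -0.25, edgeR adjusted p = 0.0283, against 0.198 without it) and Espl1 (difference -0.16, edgeR adjusted p = 0.0190, against 0.291) were called. Pttg1 has the fewest counts of the 37, with 18.2 to 27.3 CPM over the libraries.

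Top2a and Mki67, the surface protein of mitotic chromosomes that is used as a proliferation marker, were not called with or without the block. Top2a had 827.4, 880.8 and 804.3 CPM in 1X glucose and 809.6, 767.8 and 754.8 CPM in 2-DG, with a difference of -0.11 (SE 0.055, edgeR adjusted p = 0.215). Mki67 differed by -0.099 (SE 0.105, edgeR adjusted p = 0.578). Both had overlapping groups.

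Across the members, 26 were lower in 2-DG in all 3 passages, as were 30.7% of all genes tested, and in 17 members the 2-DG libraries lay entirely below the 1X libraries, as in 17.2% of all genes. In 13 members all 2-DG libraries lay below the other 9 libraries. The share of all genes with this wider separation is not given here, so it does not compare the members with other genes. Taking each member's deviation from its own mean over the 12 libraries, the median over the 37 was -0.11, -0.085 and -0.052 in the 2-DG libraries of passages 13, 15 and 16. In the other 9 libraries it lay between -0.025 (3X glucose, passage 16) and 0.099 (1X glucose, passage 15). The 1X library of passage 15 had only 2 of 37 members below their own mean, and the 2-DG library of that passage 31 of 37.

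**Figure D3:**
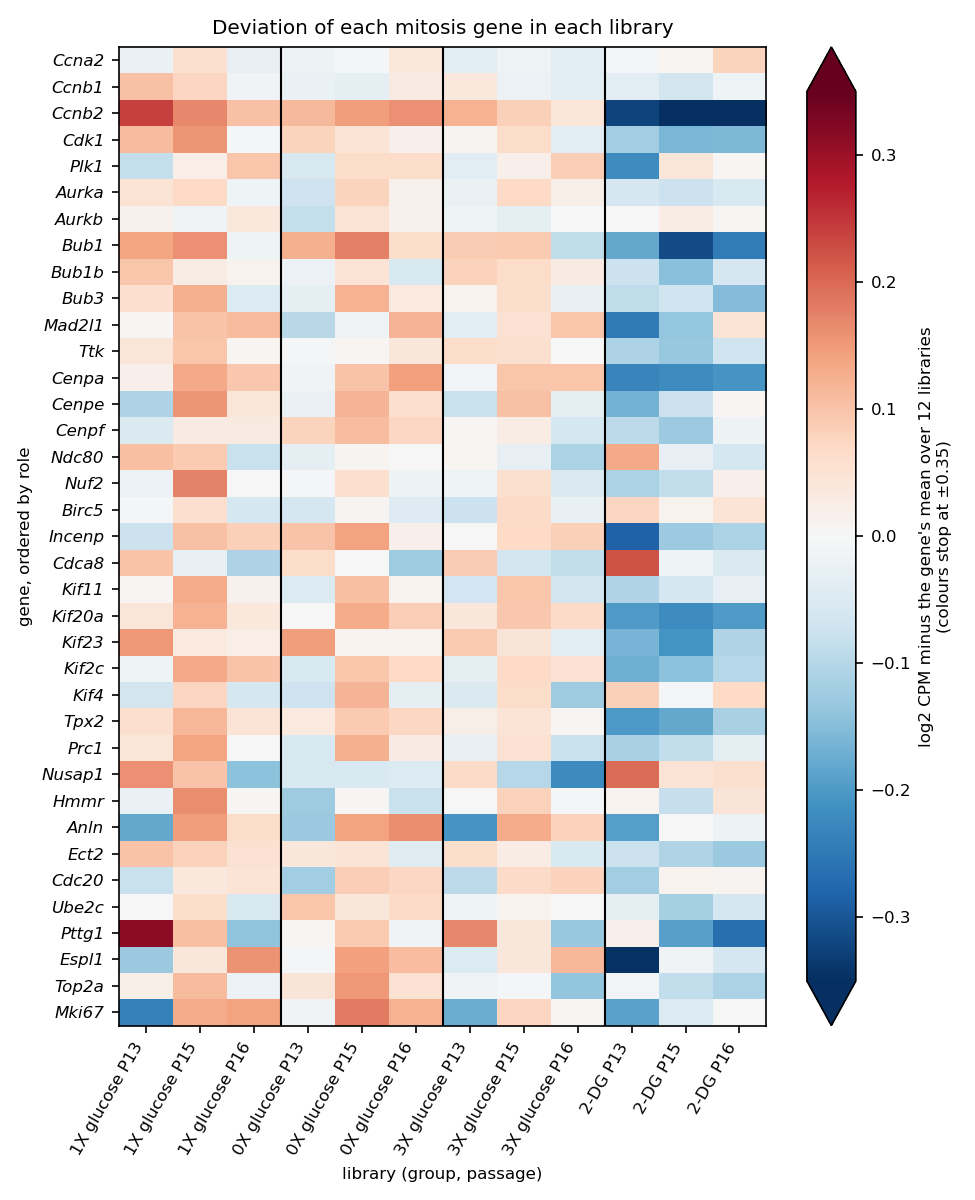
Deviation of log2 CPM from each gene's mean over the 12 libraries (colour, blue below and red above, stopping at ±0.35) for the 37 mitosis genes (rows) in each library (columns, P for passage). The 2-DG columns have 30, 31 and 26 of 37 genes below their own mean at passages 13, 15 and 16.

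How firmly each call stood varied. With all libraries and the passage block, all 11 stayed called, with edgeR adjusted p = 0.000320 for Kif2c and 0.00342 for Incenp. The fits that follow had no block, so they do not use the pairing of the libraries by passage. They bear only on the calls made without it. When each of the 6 libraries of the 2 groups was left out in turn, Ccnb2, Cdk1, Bub1, Cenpa, Kif20a and Tpx2 were called in 6 of 6 fits. Ect2 was called in 5 (edgeR adjusted p = 0.0588 without 2-DG passage 16). Ttk lost the call without the passage 13 or 15 library of 2-DG or the passage 15 library of 1X glucose, and Kif23 without the passage 13 library of either group or the passage 15 library of 2-DG. Their highest edgeR adjusted p values were 0.0740 and 0.0833. Kif2c was called in 2 of 6 (highest edgeR adjusted p = 0.0753) and Incenp in 1 of 6, the fit without the passage 13 library of 1X glucose (highest edgeR adjusted p = 0.125). The count was 7 without the passage 13 or the passage 15 library of 2-DG. In 1 fit each, Mad2l1 gained the call without the passage 16 library of 2-DG (edgeR adjusted p = 0.0447) and Bub3 without that of 1X glucose (0.0402).

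The gene sums rest on the authors' division of reads among transcripts, and 26 of 37 members have more than 1 transcript. When the most abundant transcript of each gene stood for the gene, 3 members were called, namely Ccnb2, Cdk1 and Kif20a. The share of all genes called in that fit is not given here, so this count does not compare the members with other genes. Tpx2 has 8 transcripts, of which the leading one held 17.9% of its counts. That transcript alone gave a difference of 0.39 (edgeR adjusted p = 0.688) where the gene sum gave -0.24. The leading transcript of Ttk held 93.0%, 45.3% and 38.2% of the gene's counts in the 1X libraries of passages 13, 15 and 16, and 88.7% to 91.8% in 2-DG, and gave a difference of 0.47 (edgeR adjusted p = 0.622) against -0.15 for the sum. Bub1, Cenpa, Kif23 and Incenp stayed below 0 on their leading transcripts, with edgeR adjusted p from 0.209 to 0.328, as did Ect2 (edgeR adjusted p = 0.0629) and Kif2c (0.0960).

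Exons of 8 members overlap those of a protein-coding gene on the opposite strand in GENCODE M21. The library kit keeps the strand, but whether the counting used it is not given in the sources used here. Of the members called in 2-DG against 1X glucose without the block, only Kif20a is concerned, with 1271 exon bases shared with Cdc23, a subunit of the anaphase-promoting complex. Ube2c, called against 0X glucose, shares 592 bases with Tnnc2, and Prc1, called against 1X glucose with the block, 911 with Rccd1. Cdc23 had 261.6 ± 6.62 CPM in 1X glucose and 246.2 ± 7.06 in 2-DG (SD, n = 3), a difference of -0.087 (edgeR adjusted p = 0.160). The part of shared reads in the Kif20a difference was not tested.

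Against 0X glucose, which tests whether 2-DG differs from the lack of glucose itself, 2-DG again had 11 of 37 members lower and none higher, where 9.04% of all genes were called lower. Of these, 9 were also called against 1X glucose. Both comparisons use the same 2-DG libraries. Ttk and Ect2 were called against 1X alone (edgeR adjusted p = 0.0602 and 0.0782 against 0X), but with the passage block both were called against 0X too (0.0182 and 0.00543). Ube2c and Cenpf were called against 0X alone, with differences of -0.14 (edgeR adjusted p = 0.0417) and -0.16 (edgeR adjusted p = 0.0245). The direct test of the gap between the 2 comparisons is that of 0X against 1X glucose, in which none of these 4 genes was called.

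Ccnb2 had 109.9, 112.6 and 113.6 CPM in 0X glucose, all above its 2-DG libraries, and 2-DG was lower by a log2 difference of -0.53 (SE 0.050, edgeR adjusted p = 0.000147). For Bub1 the difference was -0.37 (SE 0.066), for Cenpa -0.30 (SE 0.051) and for Kif20a -0.28 (SE 0.043). With the passage as a block, 20 members were called lower and none higher against 0X, where 21.5% of all genes were called lower, and Top2a, Mki67, Anln and Cenpe were among them. Of the 37, 14 were called with the block against both 1X and 0X glucose and 13 against neither. The count without the block was 6 when the passage 13 or the passage 15 library of 2-DG was left out, and 7 without the passage 13 or the passage 15 library of 0X glucose or with only these 2 groups in the fit.

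Glucose withdrawal alone called no member. Between 0X and 1X glucose, 0 of 37 passed the test in either direction, 0 had an unadjusted p under 0.05, and DESeq2 also called 0. Over all genes 0.0118% were called, and 0.0177% with the block, under which again 0 members were called. Fold changes ran from -0.11 for Hmmr to 0.082 for Cenpf, with a median of -0.013. For Ccnb2 the difference was -0.032 (SE 0.050), for Bub1 0.024 (SE 0.066), for Cenpa -0.004 (SE 0.051) and for Kif20a 0.006 (SE 0.043).

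Glucose excess gave the same counts. Between 3X and 1X glucose, 0 of 37 members were called by edgeR or DESeq2 and 0 had an unadjusted p under 0.05. Over all genes 0% were called, and 0% with the block. Fold changes ran from -0.13 for Nusap1 to 0.017, with a median of -0.033, and 31 of 37 were below 0 against 48.6% of all genes. Ccnb2 had 110.7, 107.6 and 104.7 CPM in 3X glucose, with a difference of -0.089 (SE 0.050). Between 3X and 0X glucose, edgeR and DESeq2 called 0 members, with 0.0118% of all genes called, or 0.802% with the block, which also called 0 members. The single member with an unadjusted p under 0.05 was Top2a, at 840.6, 906.4 and 846.0 CPM in 0X and 808.2, 813.5 and 741.5 CPM in 3X glucose, a difference of -0.13.

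Over the 4 treatments, 14 of 37 members (37.8%) differed among the 3 passages by an F test in edgeR, where 46.2% of all genes were called, so the share of the members lay below that of all genes. Each passage has 1 library of each treatment, and the labels do not say whether these came from 1 ES cell culture. The SE and p-values of the passage tests therefore do not measure the spread between independent cultures of a passage. Passage number and anything else that the libraries of a passage share, such as a culture or a day, cannot be told apart here. The members called were Plk1, Bub3, Mad2l1, Cenpa, Cenpe, Cdca8, Kif11, Kif2c, Nusap1, Anln, Cdc20, Pttg1, Espl1 and Mki67. Of these, Cenpa and Kif2c were also called in 2-DG against 1X glucose without the block. With the passage block, the form of fit that the F test uses, 7 of the 14 were called in 2-DG, the others being Bub3, Mad2l1, Kif11, Pttg1 and Espl1.

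Anln showed the clearest steps. It had 140.9 to 148.5 CPM in the 4 libraries of passage 13, 162.5 to 179.9 at passage 15 and 160.7 to 181.8 at passage 16, so that passage 13 overlapped neither of the others. It was higher at passage 15 than at 13 by 0.28 (SE 0.030, edgeR adjusted p = 5.18e-05) and at passage 16 than at 13 by 0.25 (SE 0.030, edgeR adjusted p = 0.000114). Cdc20 had 223.9 to 230.9 CPM at passage 13 and 246.0 to 258.8 at passage 15, without overlap. Mki67 had 553.7 to 646.7 CPM at passage 13 and 630.6 to 739.2 at passage 15, with overlap, and was higher at passage 15 by 0.24 (SE 0.041). Cdca8 went the other way, with 135.1 to 150.9 CPM at passage 13 and 118.5 to 124.7 at passage 16, a fall of 0.21 on the log2 scale between non-overlapping passages.

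At passage 15 against 13, 11 members were called higher and 1 lower, where 41.8% of all genes were called, and at passage 16 against 13, 9 were higher and 6 lower, where 40.2% were called. Between passages 16 and 15, edgeR called 0 members, with 8 at an unadjusted p under 0.05, where 4.2% of all genes were called. These shares of all genes hold both directions together. The shares by direction, and at an unadjusted p under 0.05, are not given here. The split by direction and the 8 therefore do not compare the members with other genes. Leaving out the passage 13 library of 3X glucose took the F test count from 14 to 9.

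**Figure D4:**
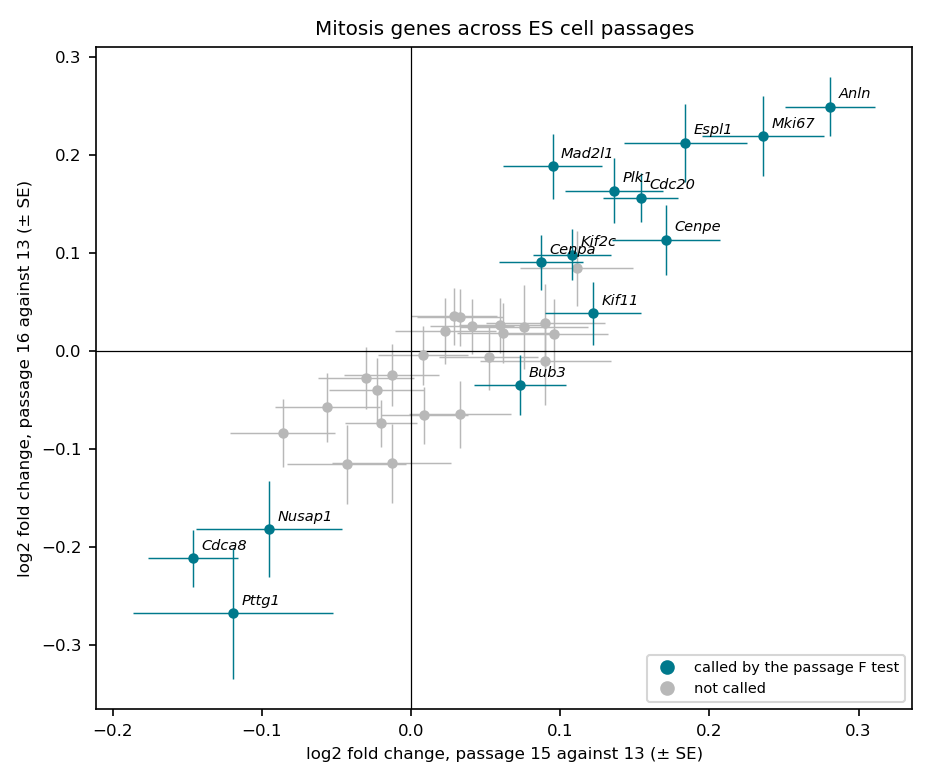
Log2 fold change with standard errors of the 37 mitosis genes at passage 15 against 13 (x axis) and at passage 16 against 13 (y axis), each over 4 treatments. The 14 genes called by the F test are named; Anln and Mki67 lie highest, and Cdca8, Nusap1 and Pttg1 lie below 0 on both axes. Both axes share the passage 13 libraries.

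Other cell cycle genes, in lists written from general knowledge, were counted beside the 37 in 2-DG against 1X glucose. In this comparison 8.51% of all genes tested were called lower and 9.12% higher. Of 35 further kinetochore and centromere genes, 7 were called lower and none higher. Zwilch and Kntc1, of the complex that brings dynein to kinetochores, fell by 0.28 and 0.27, and Nsl1 and Zwint, of the kinetochore core, by 0.30 and 0.21. Of 40 further spindle, centrosome and cytokinesis genes, 9 were lower and none higher, led by Haus3 (-0.27) and Haus2 (-0.25), subunits of augmin, the motor Kif22 (-0.23) and the centriole gene Cenpj (-0.48). The median difference was -0.052 in the first list and -0.091 in the second.

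In the anaphase-promoting complex 5 of 17 genes were lower and 1 higher. The lower ones with the lowest p were Fbxo5, its inhibitor, at -0.25, and the small subunits Anapc15 (-0.33), Cdc26 (-0.23) and Anapc11 (-0.26). The 1 higher gene was Anapc5 (0.13), a larger subunit, named after its value was seen. Among condensin and cohesin genes 4 of 19 were lower and none higher: Esco2, Ncapd3, Cdca5 and Ncaph, by 0.24, 0.24, 0.21 and 0.17.

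Of 22 further genes of mitotic entry, 7 were lower and 2 higher. The higher ones work on Cdk1 from opposite sides. Pkmyt1, a kinase that inhibits Cdk1, went from 22.7 ± 1.21 to 32.6 ± 1.95 CPM, up by 0.52 (SE 0.069, edgeR adjusted p = 0.000997). Cdc25b, a phosphatase that activates it, reached 39.0 ± 4.11 CPM in 2-DG, up by 1.12 (SE 0.261, edgeR adjusted p = 0.0151). Melk and Cks1b fell by 0.26 and 0.25.

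Before mitosis, the list of G1 cyclins, CDK inhibitors and Rb-E2F genes had 3 higher and 5 lower of 28, where 9.12% of all genes were higher and 8.51% lower. The D-type cyclin Ccnd2 rose by 0.61 (356.5 ± 48.3 to 546.2 ± 19.3 CPM), the CDK inhibitor Cdkn1b by 0.58 (to 62.8 ± 4.57 CPM) and Ccng1, a p53 target, by 0.34. E2f6, a repressor of the E2F family, fell by 0.59, from 103.6 ± 4.33 to 68.7 ± 0.745 CPM (edgeR adjusted p = 0.000165). Of 40 DNA replication genes, 12 were lower and 2 higher, with a median of -0.12. Mcm10 fell by 0.44, Rrm1, a subunit of ribonucleotide reductase, by 0.26, and Rfc3 and Orc1 by 0.32 and 0.38. With the passage block, the counts called lower were 12 of 35 for the kinetochore, 16 of 40 for the spindle, 10 of 17 for the anaphase-promoting complex, 9 of 19 for condensin and cohesin, 8 of 22 for mitotic entry, 10 of 28 for the G1 list and 22 of 40 for DNA replication, against 20.2% of all genes. Those called higher with the block were 0, 2, 2, 1, 3, 4 and 4 in the same order, against 21.1% of all genes. None of the genes in these 7 lists was called between 0X and 1X or between 3X and 1X glucose by edgeR, where 5 and 1 of them had an unadjusted p under 0.05.

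**Figure D5:**
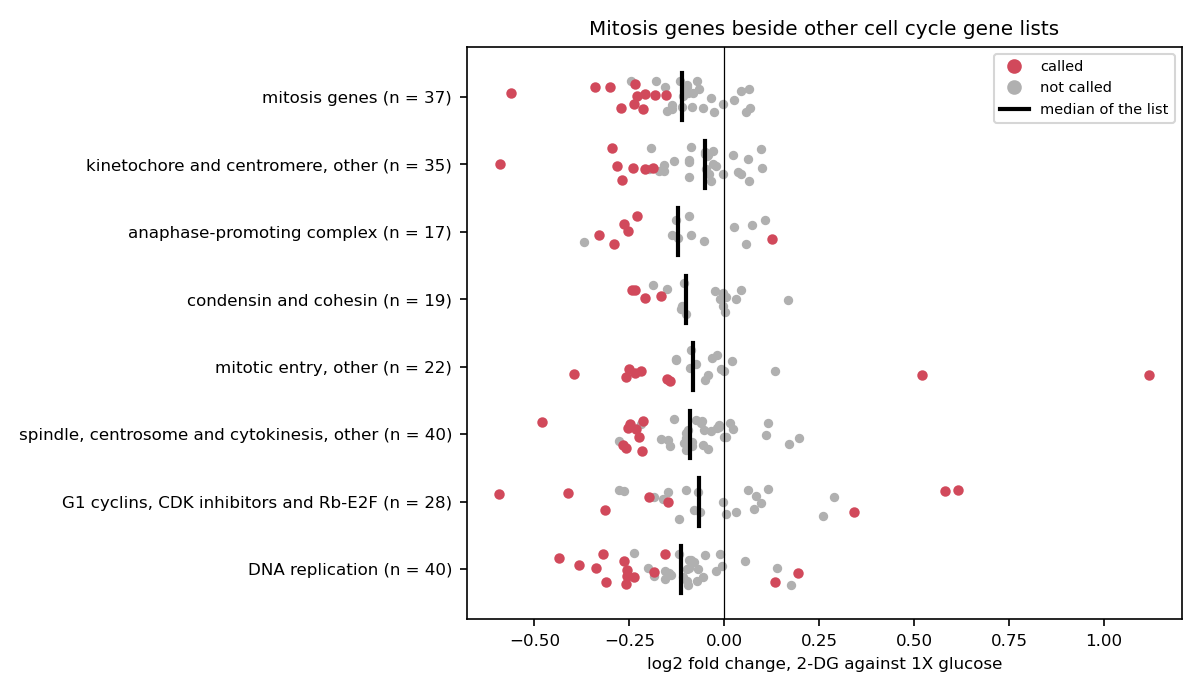
Log2 fold change in 2-DG against 1X glucose (x axis) of each gene in the mitosis list and in 7 other cell cycle lists (rows, points spread vertically for sight only), red where called, with the median of each list as a black bar. The medians of all 8 lists lie between -0.12 and -0.052, and the genes called higher number 1 in the anaphase-promoting complex, 2 in mitotic entry, 3 in the G1 list and 2 in DNA replication.

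Some cell type markers moved with 2-DG as well, though bulk RNA cannot tell a change in cell numbers from one in RNA per cell. The summed level of 9 primitive streak and early mesoderm markers was 678.4 to 1145.6 CPM in 1X glucose and 433.5 to 554.9 CPM in 2-DG, without overlap, and 3 of the 9 (T, Mixl1 and Wnt3a) were called lower. Of 8 neural progenitor markers, 3 (Sox1, Pax6 and Neurog2) were called higher, while their sum overlapped, at 201.5 to 349.9 CPM in 1X glucose and 220.7 to 403.6 in 2-DG. The sum of 8 definitive endoderm markers was 47.6 to 204.5 CPM in 1X glucose and 46.2 to 93.9 in 2-DG, and that of 8 pluripotent cell markers 65.6 to 118.8 and 84.7 to 111.5. The endothelial and blood markers summed to 3.16 to 10.5 CPM in 1X glucose and to 1.84 to 1.97 in 2-DG, with the globins Hba-x and Hbb-bh1 at 0 in both groups and Gata1 at 0 in 2-DG. Etv2 of this list and Trh of the endoderm list were called lower and no pluripotent cell marker was called. With the passage block, 6 streak, 4 endothelial and blood, 3 endoderm and 1 neural marker were lower, and 5 neural, 3 pluripotent and 2 endoderm markers higher. Of all genes tested, 20.2% were called lower and 21.1% higher with the block, and 8.51% and 9.12% without it. The part of this shift in the levels of the mitosis genes was not tested.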

How the data were processed

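The authors deposited estimated counts per RefSeq transcript for each library. Their processing notes name Trim Galore, HISAT2, SAMtools, Picard (duplicate reads removed) and StringTie with genome build mm10; versions, the strand setting and the annotation release are not given in the sources used here. All 120312 transcripts were matched to symbols with the RefSeq table of GRCm38.p6, and the counts, whole numbers as deposited, were summed per gene. The deposited tables of the authors' own comparisons (fold changes and p-values) were not used.

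Genes passing filterByExpr (minimum count 10) were fitted with edgeR 4.0.16 in R 4.3.3 (TMM, quasi-likelihood, two-sided) over all 12 libraries with the treatment as the term, and p-values were adjusted over 16966 genes (threshold 0.05). The study used DESeq2 and states no design for it. DESeq2 1.42.0 was an alternative. Standard errors are the log2 fold change over the root of F. Passages were compared in a fit with treatment and passage. CPM used TMM factors. The labels give a passage number and do not say whether the libraries of a passage share a culture, plate or day. The values paired by passage: deviations from group means correlated from 0.0963 to 0.623 over the 18 pairs of 1 passage. Over the 36 other pairs they correlated from -0.440 to 0.191. The depth per library was 31902471 to 45956080 counts, and the lowest member, Pttg1, had 685 to 1242 counts a library.

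The members and lists were chosen with earlier results of these data known. All 37 members are named. Values per library are given for those called in 2-DG against 1X glucose and moved 1 way in all passages, and for the most abundant member per length of each role. In other lists at most 4 called genes with the lowest adjusted p are named. Alternatives were no filter, median-of-ratios factors, the passage block, DESeq2, the most abundant transcript, only the 2 groups compared, and leaving out each library.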

Additional observations from a re-analysis of the deposited data

How the results depend on the processing

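The count of mitosis genes called in 2-DG against 1X glucose (11) was 11 without the filter on low counts, 12 with median-of-ratios factors, 12 by DESeq2 and 8 with only the 2 groups in the fit. It was 18 with the ES cell passage as replicate block, 3 with the most abundant transcript alone and 7 to 10 when 1 library was left out. Against 0X glucose (11) it was 20 with the passage block, 2 with the most abundant transcript alone, 7 with only the 2 groups compared and 6 to 9 when 1 library was left out. The passage count (14) was 5 with the most abundant transcript alone and 9 to 19 when 1 library was left out. Apart from the block, the shares of all genes called under these alternatives are not given here, so the counts do not compare the members with other genes. On the most abundant transcript Ttk (0.47) and Tpx2 (0.39) turned above 0 without passing the test. Of 132 refits of the 11 called members, 105 kept direction and call, 25 kept the direction and lost the call, and these 2 reversed. The block changed no call between glucose levels. All counts between glucose levels were 0 under each alternative run. The cause of these changes was not tested, beyond the fewer libraries or reads that some alternatives leave. Without the block, the called member whose log2 difference lay nearest 0 was Ttk (-0.15) against 1X glucose and Ube2c (-0.14) against 0X glucose.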
